A study of Mus musculus with 5 samples.

Results

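The 10 genes described here encode the route by which cells present peptides on MHC class I. They are the light chain B2m, the heavy chains H2-K1 and H2-D1, the peptide transporter subunits Tap1 and Tap2, the loading factor Tapbp, the immunoproteasome subunits Psmb8, Psmb9 and Psmb10, and the class I regulator Nlrc5. They were taken by gene symbol, as 10 of the 31053 genes listed in each of 5 count matrices. Nearly all nucleated cells carry class I molecules, which hold fragments of the cell's own proteins at the surface for inspection by CD8 T cells and natural killer cells. Peptides are cut by the proteasome, whose constitutive catalytic subunits can be exchanged for the interferon-inducible immunoproteasome subunits, and are pumped by TAP into the endoplasmic reticulum, where tapasin (Tapbp) bridges the pump to an empty heavy chain bound to B2m. Nlrc5 is the transactivator that drives transcription of most of these genes through a conserved promoter module.

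The study profiled whole ovaries of untreated C57BL6/J mice at 2, 3, 4, 5 and 6 wk by droplet single-cell RNA sequencing, to follow follicle development to puberty and beyond. Ovaries were dissociated with trypsin and live cells were sorted as those that excluded SYTOX Orange. Each age was 1 library, so no age has a replicate and no test of age was possible. Intervals in parentheses are exact 95% intervals that cover counting error only. The 5 libraries held 7779 to 11077 cells and 93438618 to 144609431 unique molecular identifiers (UMIs), with a median of 9056 to 12424 UMIs per cell, and any pair of libraries shared 18 to 35 cell barcodes. The matrices of 2, 3 and 4 wk were written by Cell Ranger 3.1.0 and those of 5 and 6 wk by Cell Ranger 6.0.1, so the software version changes with age and cannot be told apart from it.

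Of the 10 genes, 7 lie in the major histocompatibility complex on chromosome 17 (GRCm38), between position 33915899, where Tapbp starts, and position 35267499, where H2-D1 ends. Psmb9 (chr17:34181987-34187764, minus strand) and Tap1 (chr17:34187553-34197225, plus strand) are transcribed head to head and overlap by 212 bases at their starts. B2m is on chromosome 2 (chr2:122147686-122153083), and Psmb10 and Nlrc5 are on chromosome 8. A promoter window of 250 bases before and 50 bases after the start was held by RefSeq (GRCm38.p6) for 8 of the 10 genes, in 9 windows. Tap2 and Nlrc5 had no entry.

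The windows of the 3 class I chains and of Tap1 are shown because the chains hold most of the UMIs of the 10 genes and Tap1 shares most of its window with Psmb9. Capitals mark matches, on either strand, to 5 motifs, none of which lies within another. GAAANNGAA is a core of the interferon-stimulated response element, and TTCNNNGAA is the interferon-gamma-activated (GAS) element. CCAAT is the box bound by NF-Y. TGACG is the core that CREB and ATF factors bind, and GGGNATTCC is a core of the NF-kappaB site.
B2m, chr2:122147437-122147736, plus strand: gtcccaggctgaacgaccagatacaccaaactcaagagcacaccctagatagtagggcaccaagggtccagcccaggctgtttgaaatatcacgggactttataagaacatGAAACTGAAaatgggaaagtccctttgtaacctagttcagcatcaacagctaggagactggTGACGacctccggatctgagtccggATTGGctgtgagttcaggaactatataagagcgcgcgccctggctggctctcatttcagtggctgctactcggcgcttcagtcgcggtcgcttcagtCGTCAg
H2-K1, chr17:34000284-34000583, minus strand: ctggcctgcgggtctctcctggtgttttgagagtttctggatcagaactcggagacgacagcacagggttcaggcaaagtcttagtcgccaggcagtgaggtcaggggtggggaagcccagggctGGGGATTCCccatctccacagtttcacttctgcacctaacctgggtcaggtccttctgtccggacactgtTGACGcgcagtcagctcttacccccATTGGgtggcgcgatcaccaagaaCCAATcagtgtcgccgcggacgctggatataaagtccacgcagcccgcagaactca
H2-D1, chr17:35262844-35263143, plus strand: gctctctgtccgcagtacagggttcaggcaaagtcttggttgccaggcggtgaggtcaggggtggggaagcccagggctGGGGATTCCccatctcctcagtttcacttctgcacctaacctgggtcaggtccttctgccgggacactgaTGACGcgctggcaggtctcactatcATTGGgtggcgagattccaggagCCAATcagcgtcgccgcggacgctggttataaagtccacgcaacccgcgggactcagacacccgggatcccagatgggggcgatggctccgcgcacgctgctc
Tap1, chr17:34187306-34187605, plus strand: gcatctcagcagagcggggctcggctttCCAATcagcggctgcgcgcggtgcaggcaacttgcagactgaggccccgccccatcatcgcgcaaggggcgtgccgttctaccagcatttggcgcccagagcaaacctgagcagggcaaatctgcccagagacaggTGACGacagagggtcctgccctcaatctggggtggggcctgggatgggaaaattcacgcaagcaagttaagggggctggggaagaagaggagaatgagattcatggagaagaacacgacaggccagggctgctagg
H2-K1 and H2-D1 held the same letters in the same order, the kappaB match GGGGATTCC, then the core TGACG, then CCAAT on each strand. The GGGNATTCC motif was in 0.776% of 32851 windows of all genes and in 3 of the 9 windows of these genes, all of H2-K1 or H2-D1 (H2-K1 has 2 overlapping windows). TGACG was in 20.8% of all windows and in 6 of the 9. CCAAT was in 37.4% of all and in 7 of the 9. The GAAANNGAA motif was in 8.56% of all windows and, here, in that of B2m alone. Other forms of the interferon-stimulated response element were not searched, so the other windows cannot be taken to lack one. TTCNNNGAA was in 8.3% of all and, here, in that of Psmb8 alone. The windows of Tap1 and Psmb9 share 275 bases, so their matches are largely the same letters. A match is a description of the sequence and was not tested for binding.

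Cells were grouped by unsupervised clustering, without the members among the genes used to cluster, and clusters were named from marker lists. The suffix "-like" records that the names were rebuilt from markers. There were 17835 granulosa-like cells, 14268 stromal-like, 3823 smooth muscle-like, 1277 theca-like, 858 pericyte-like, 710 blood endothelial-like, 497 hematopoietic-like, 321 surface epithelial-like, 231 lymphatic endothelial-like and 90 rete ovarii-like cells, and 8253 cells stayed unnamed, mostly in clusters of low UMI count. The named classes carried their defining genes: Ptprc was found in 79.3% of hematopoietic-like cells, Cdh5 in 87.6% of blood endothelial-like cells, Inha in 98.9% of granulosa-like cells and Upk3b in 96.3% of surface epithelial-like cells. Levels are given in CPM, the standard depth-scaled count unit, as the share of a gene in all UMIs of the cells of a group, and only groups of at least 50 cells in a library enter a comparison. H2-K1, H2-D1 and the related H2-Q and H2-T genes are near-identical in stretches, so their separate counts are uncertain.

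Class I pathway genes were highest in hematopoietic-like cells, followed by blood endothelial-like cells, and were lowest in smooth muscle-like, theca-like, granulosa-like and stromal-like cells. The summed level of the 10 genes in hematopoietic-like cells was 3924 CPM at 2 wk, 3162 at 3 wk, 3805 at 4 wk, 6099 at 5 wk and 6277 at 6 wk. In granulosa-like cells it was 252, 219.5, 344, 455 and 379 CPM at the same ages. In every library the hematopoietic-like level lay above the granulosa-like level, by a median of 14.4-fold (lowest 11.1, highest 16.6 over 5 libraries). Blood endothelial-like cells stood between them, at 1357, 983, 2016, 4039 and 4105 CPM, a median of 5.85-fold over granulosa-like cells with a wider range of 4.48 to 10.8. Lymphatic endothelial-like cells were at 904 CPM at 4 wk and 2646 CPM at 5 wk, the libraries that held at least 50 of them. Surface epithelial-like cells were at 842, 1312 and 1349 CPM at 2, 5 and 6 wk, and pericyte-like cells at 346.6, 344, 669.7, 1058 and 965 CPM at 2 to 6 wk. From the lowest to the highest library, theca-like cells spanned 173 to 584 CPM, smooth muscle-like cells 207 to 406, granulosa-like cells 219.5 to 455 and stromal-like cells 232.6 to 588. These ranges overlap, but within a library the stromal-like level was at or above the granulosa-like level in all 5 (median 1.12-fold, 1.001 to 1.46). Smooth muscle-like cells (median 0.894, 0.737 to 1.06) and theca-like cells (median 0.787, 0.706 to 1.28) were below it in 4 of 5.

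**Figure D1:**
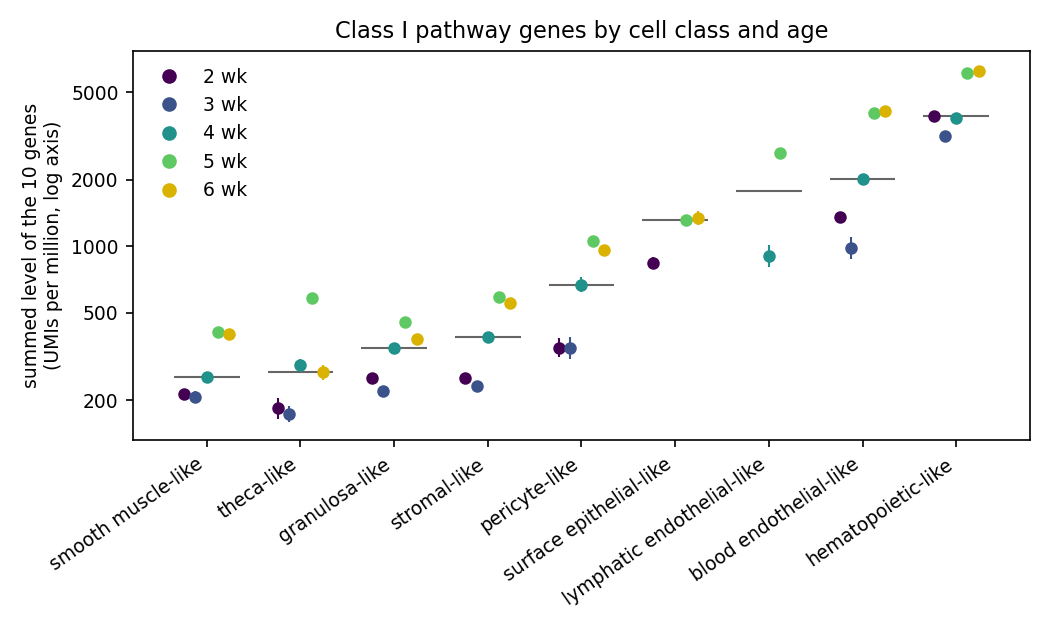
Summed level of the 10 genes (y axis, CPM, log axis) in each cell class (x axis). Each point is 1 library, coloured by age, with its counting interval where it is larger than the point, and each bar is the median over libraries with at least 50 cells of the class. Hematopoietic-like cells sit at 3162 CPM or above in every library, while the theca-like, stromal-like, smooth muscle-like and granulosa-like classes stay at or below 588 CPM.

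The 3 class I chains made up most of the signal. H2-K1, H2-D1 and B2m together took 81.8% of the UMIs of the 10 genes in hematopoietic-like cells, 83.1% in blood endothelial-like cells and 77.5% in granulosa-like cells, but 66.4% in stromal-like and 63.4% in smooth muscle-like cells. B2m, the light chain shared by all class I molecules, was at 1087, 636, 749, 1601 and 1720 CPM at 2 to 6 wk in hematopoietic-like cells, and at 63.8, 45.4, 81.0, 131 and 111 CPM in granulosa-like cells. The 2 sets did not overlap, and the fold between them within a library ran from 9.25 to 17.0 (median 14.0). H2-K1, a classical heavy chain, had a median fold of 15.0 (10.3 to 17.9), and H2-D1, the other classical heavy chain of this strain, 18.8 (12.6 to 20.6).

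The chains did not keep one order across classes. Stromal-like cells had more B2m than granulosa-like cells in all 5 libraries (median 1.92-fold, 1.69 to 2.04) but less of both heavy chains in all 5, with medians of 0.472 for H2-K1 (0.331 to 0.746) and 0.66 for H2-D1 (0.499 to 0.903). Smooth muscle-like cells showed the same for the heavy chains, at a median of 0.42 for H2-K1 and 0.617 for H2-D1. B2m took 40.9% of the summed UMIs of stromal-like cells and 26.3% of those of granulosa-like cells. The surface epithelial-like class, the layer that covers the ovary, had the opposite balance, with B2m at 14.1% and H2-K1 3.37-fold over granulosa-like cells as the median of 3 libraries (3.29 to 4.32).

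Among the immunoproteasome subunits, Psmb8 had the largest difference between hematopoietic-like and granulosa-like cells and Psmb10 the smallest. Psmb8, which replaces the chymotrypsin-like subunit Psmb5, was at 274, 356, 395, 415 and 455 CPM at 2 to 6 wk in hematopoietic-like cells and at 6.46, 7.13, 9.02, 12.3 and 11.5 CPM in granulosa-like cells. The median fold was 42.5 (33.7 to 49.9), above that of any other member. Psmb9, which replaces Psmb6, had a median fold of 23.2 (20.1 to 26.9), and Psmb10, which replaces Psmb7, one of 5.21 (4.11 to 6.64). Their constitutive counterparts were lower in hematopoietic-like than in granulosa-like cells over all libraries, with Psmb5 at 190.5 against 276 CPM, Psmb6 at 191 against 332 CPM and Psmb7 at 82.9 against 143 CPM. As a ratio of UMIs, Psmb8 to Psmb5 was 2.08 (1.91 to 2.26) in hematopoietic-like cells, 1.02 (0.949 to 1.09) in blood endothelial-like cells, 0.259 (0.232 to 0.289) in pericyte-like cells, 0.106 (0.102 to 0.11) in stromal-like cells and 0.0341 (0.0328 to 0.0354) in granulosa-like cells. Psmb10 to Psmb7 followed a flatter scale, from 1.5 (1.31 to 1.73) in hematopoietic-like cells to 0.162 (0.158 to 0.166) in granulosa-like cells. Capture can differ between 2 genes, so the size of such a ratio is not read by itself. It is compared only across groups of cells and across ages, where age and library cannot be told apart.

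Among the genes of peptide transport and loading, Tap1 was a median of 14.8-fold higher in hematopoietic-like than in granulosa-like cells (12.8 to 15.3), Tap2 12.0-fold (8.63 to 24.9) and Tapbp 4.87-fold (3.61 to 6.05). Tapbp was highest in surface epithelial-like cells, at 207, 194 and 218 CPM at 2, 5 and 6 wk, a median of 7.71-fold over granulosa-like cells (7.47 to 9.55), and so above its fold in hematopoietic-like cells. Smooth muscle-like cells also had more Tapbp than granulosa-like cells in all 5 libraries (median 2.3-fold, 1.71 to 2.52) and more Tap2 (2.59-fold, 2.39 to 2.97), while their Tap1 differed little (1.01-fold, 0.945 to 1.58).

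Nlrc5, the regulator, was the scarcest member. It reached 16.4 CPM in hematopoietic-like cells (12.8 to 20.8, from 70 UMIs) and 7.06 CPM in blood endothelial-like cells (61 UMIs), against 1.48 CPM in granulosa-like cells (439 UMIs) and 0.192 CPM in stromal-like cells (31 UMIs). Its median fold in hematopoietic-like over granulosa-like cells was 11.3 (7.27 to 11.8). Granulosa-like cells exceeded stromal-like cells in all 5 libraries, the stromal-like level being a median of 0.13 of the granulosa-like level (0.0241 to 0.221). No UMI of Nlrc5 was found in surface epithelial-like cells, which by the exact interval allows a level of up to 1.09 CPM.

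**Figure D2:**
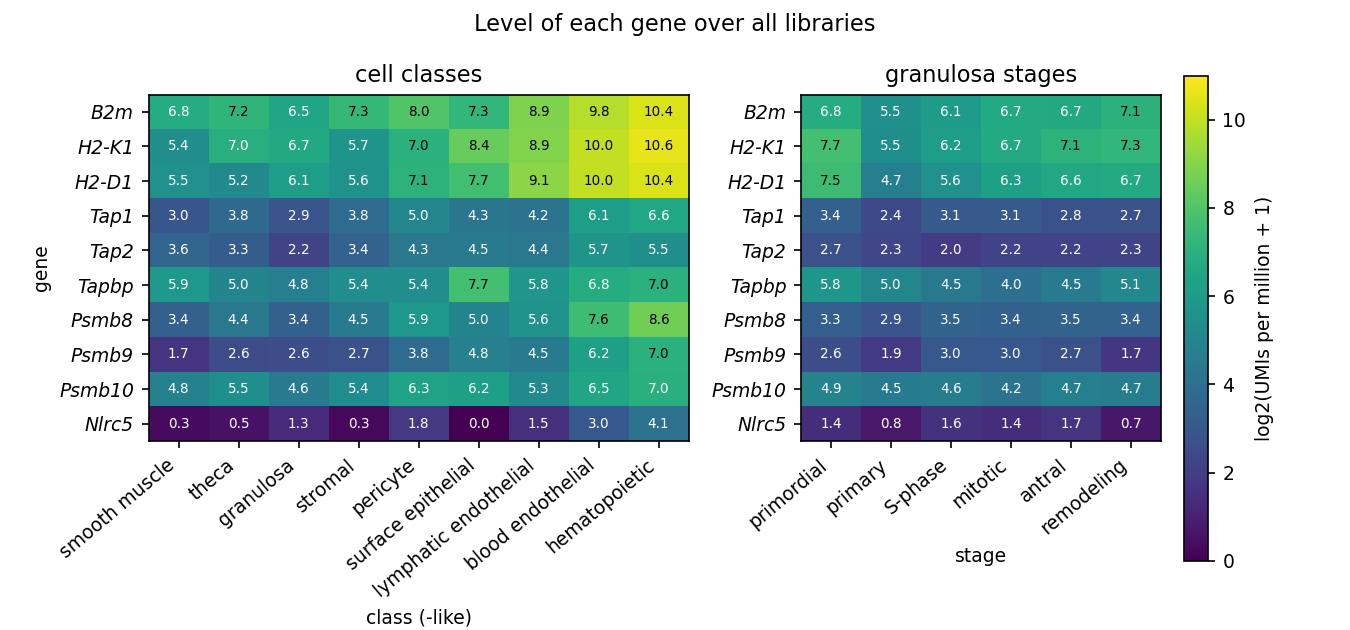
Level of each gene (rows) as log2(CPM + 1) over all libraries, for 9 cell classes (left) and 6 groups of granulosa-like cells (right), with the same colour scale. Over all libraries 8 of the 10 genes are highest in hematopoietic-like cells and Tapbp in surface epithelial-like cells (212 CPM), while Tap2, at 51.4 CPM in blood endothelial-like and 43.2 CPM in hematopoietic-like cells, is higher in the endothelial cells at 5 and 6 wk only.

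A gene was counted as apart between 2 groups where it had at least 100 UMIs over both and differed at least 2-fold in 1 direction in every library compared. By that rule all 10 members were higher in hematopoietic-like than in granulosa-like cells, where 9.28% of 14328 genes were. In blood endothelial-like cells 8 of 10 were higher (10.2% of all genes), with Psmb10 short of 2-fold at 2 wk alone and Psmb9 at 3 wk alone, where the 68 endothelial cells held a single UMI of it. Without either library the count was 9. Nlrc5, among the 8, passed at 2 wk by 2.06-fold, at 1.09 CPM among 915406 UMIs. Its count there is too low to show a 2-fold difference. In lymphatic endothelial-like cells 5 of 10 were higher (12.3% of all genes) over the 2 libraries with at least 50 cells (8 without the 4 wk library), and in surface epithelial-like cells 8 of 10 (11.0% of all genes) over 3 libraries. Of the 5 in lymphatic endothelial-like cells, Tap2 and Psmb9 were at 5.63 and 8.45 CPM among 355191 UMIs at 4 wk. A few UMIs set those 2 calls. In pericyte-like cells 1 member, Psmb10, was higher (10.2% of all genes), at the background share. The count was 2 without the 2 wk library and 4 without that of 3 wk. Counts with a library left out, here and below, are given without the share of all genes in that setting. They are therefore not set against a background. In stromal-like cells none was higher (11.5% of all genes) and 1 of 10, Nlrc5, was lower (9.36%). Smooth muscle-like cells had 1 of 10 higher, Tap2 (9.47% of all genes), and 1 of 10 lower, Nlrc5 (12.9%). Nlrc5 was also the 1 member called lower in surface epithelial-like cells (8.31%), but on 0 UMIs there. The exact interval allows up to 1.09 CPM, against 1.48 CPM in granulosa-like cells. That call therefore does not show a 2-fold difference. In theca-like cells 2 members, H2-D1 and Nlrc5, were lower (9.53% of all genes). Nlrc5 was at 0 CPM in the lowest library of both theca-like and smooth muscle-like cells, on 11 and 9 UMIs over all libraries. Its calls in these 2 classes therefore do not show a 2-fold difference in every library. On the log2 scale the median of the members was 3.85 in hematopoietic-like over granulosa-like cells, where that of all genes was -0.45, and 2.73 in blood endothelial-like cells, where that of all genes was -0.23.

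Droplet libraries also hold free RNA, which can place UMIs of abundant genes in any cell. In granulosa-like cells the summed members stood at 6.04% to 9.05% of their level in hematopoietic-like cells of the same library. In the same cells the 7 class II genes stood at 0.0266% to 0.1% of their hematopoietic-like level, and the 5 hematopoietic markers (Ptprc, Laptm5, Coro1a, Cd52, Tyrobp) at 0.00734% to 0.0343%. Blood endothelial markers in granulosa-like cells were at 0.112% to 0.183% of their endothelial level. The share of the members lay above that of both marker sets in every library. These markers belong to small classes, whereas the members were found in every class. Their shares therefore do not measure the free RNA of the members, whose part in these levels was not tested. In stromal-like cells the members were at 6.43% to 10.2% and class II at 0.0373% to 0.0884% of their hematopoietic-like level, and blood endothelial markers at 0.86% to 1.25% of their endothelial level.

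The other genes of the pathway followed in part. Of 11 other class I and class I-like genes tested, 8 were higher in hematopoietic-like than in granulosa-like cells and none lower, and all 7 class II genes were higher, led by Cd74, the invariant chain (median 8362-fold), and the class II chains H2-Aa, H2-Ab1 and H2-Eb1 (medians of 5259, 2068 and 1557). Interferon receptor and signalling genes were higher in 6 of 13. The 3 constitutive catalytic proteasome subunits, the 5 proteasome activators and assembly factors and the 8 partners of the class I enhanceosome gave none, and the peptide loading chaperones and trimming enzymes 1 of 10, Tapbpl. In blood endothelial-like cells 6 of 13 interferon genes were higher, with Irf8 at a median of 32.3-fold and Irf1, an interferon-responsive transcription factor, at 8.31-fold. Of the other class I genes 5 of 11 were higher there, among them H2-Q6 (27.7-fold) and H2-Q4 (10.0-fold), which share sequence with H2-K1 and H2-D1. Pericyte-like cells had 5 of 13 interferon genes higher, among them Irf8 (30.7-fold), Irf1 (7.33-fold) and the interferon-gamma receptor chain Ifngr2 (3.75-fold). Blood endothelial markers stood in pericyte-like cells at 8.67% to 12.9% of their endothelial level, and their part in these values was not tested. Surface epithelial-like cells had 5 of 5 tested class II genes higher, Cd74 by a median of 154-fold, with 0 to 1 UMI of the 5 hematopoietic markers in each library compared.

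Within the hematopoietic-like class, subclusters named from markers held 137 macrophage-like, 77 T-like, 51 dendritic-like, 36 natural killer-like and 31 neutrophil-like cells, and 165 cells stayed unnamed. Of the unnamed cells, 83 had low UMI counts. Another 38 were led by stromal genes such as Lum and Dcn (median 17887 UMIs), and 23 by granulosa genes such as Amh (median 23268 UMIs). All unnamed cells count in the class levels given above, and their part in those levels was not tested. Summed over the libraries, the 10 genes were at 8422 CPM in natural killer-like, 7710 in T-like, 6671 in macrophage-like, 6325 in neutrophil-like and 4944 in dendritic-like cells. H2-K1 was 3210 CPM in natural killer-like and 2735 in T-like cells against 1328 in neutrophil-like cells. Psmb8 led in dendritic-like cells, at 688 CPM, and was lowest in macrophage-like cells, at 364 CPM. All but 1 of these subclusters in 1 library have under 50 cells per library, so their order is a description of the pooled cells.

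Among granulosa-like cells, class I genes were low in the groups of growing primary follicles and higher in primordial, antral and remodeling groups. The names rest on stage markers fixed for this work. Of these cells 810 were named primordial, 4456 primary, 3517 antral, 3229 remodeling, 3068 S-phase and 1842 mitotic, and 913 stayed unnamed. No cluster was named secondary, so the primary group may span later preantral cells. Over all libraries the summed level was 186 CPM (183 to 190) in primary, 259 in S-phase, 346 in mitotic, 406 in antral, 474 in remodeling and 622.5 CPM (606 to 639) in primordial cells. The primordial value leans on the 2 wk library, which gave 311 of the 810 cells, at 822 CPM. Within a library the primordial group was above the antral group in all 5, but by a median of 1.13-fold (1.03 to 3.4), and at 6 wk it stood at 444 CPM, against 433 in antral and 520.5 CPM in remodeling cells.

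The primary group lay below the antral group in all 5 libraries, at a median of 0.462 of its summed level (0.431 to 0.793). H2-D1 was at 27.3, 16.5, 28.4, 37.3 and 28.7 CPM at 2 to 6 wk in primary cells and at 46.4, 61.9, 78.7, 149.8 and 105 CPM in antral cells. The 2 sets did not overlap. No member was 2-fold lower in every library (1.5% of all genes were), since the 2 groups differed less at 2 wk, with H2-K1 at 0.559 and H2-D1 at 0.588. Without the 2 wk library 3 members passed, and without that of 6 wk 1 did. Tapbp went the other way and was higher in primary cells in all 5 libraries (median 1.6-fold, 1.25 to 1.88). Psmb10 and Tap1 differed little, at medians of 0.843 and 1.02. Among the relatives, H2-Q7 (0.278) and H2-T23 (0.406) were lower in primary cells, and no gene of the other lists passed.

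The primordial group carried more class I heavy chain than the primary group in all 5 libraries. H2-D1 was at 276, 98.9, 99.3, 189.8 and 112 CPM at 2 to 6 wk in primordial cells, a median of 5.08-fold over primary cells (3.5 to 10.1). H2-K1 was at 286, 176.5, 131, 182 and 99.6 CPM, a median of 3.46-fold (2.41 to 6.64). B2m differed less, by a median of 2.12-fold (1.52 to 2.89), and Psmb8 by 1.23-fold (1.1 to 1.73). By the 2-fold rule 2 of the 9 members tested were higher, H2-K1 and H2-D1, where 2.63% of all genes were. H2-Q4 was the single gene of the other lists that passed, at a median of 4.52-fold. The cluster was also led by Ifi204, Mndal, Ifi203 and Ifi211, genes of the interferon-inducible p200 family, which helped to define it and are no result. Its 5 surface epithelial markers summed to 31.5 to 60.6 CPM, against 28.7 to 57.5 CPM in primary cells, 3.24 to 8.73 CPM in antral cells and 5480 to 6194 CPM in surface epithelial-like cells. The primordial and surface epithelial lists share Krt19, and hematopoietic markers were at 0 or 1 UMI in each library.

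**Figure D3:**
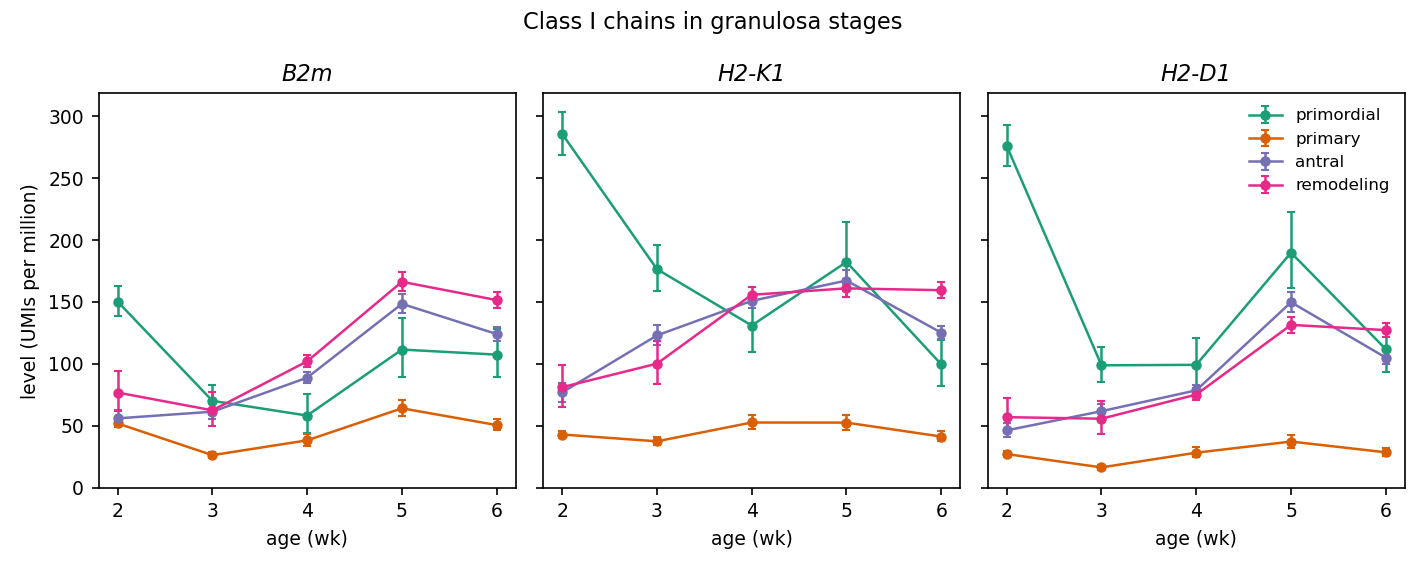
Level of B2m, H2-K1 and H2-D1 (y axis, CPM) by age (x axis) in 4 groups of granulosa-like cells, 1 library per age, with 95% counting intervals. The primordial group starts at 286 CPM of H2-K1 and 276 CPM of H2-D1 at 2 wk and ends at 99.6 and 112 CPM at 6 wk, while the antral and remodeling groups end above their 2 wk level.

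As named here, remodeling and antral cells were not separated in the sum beyond the spread over libraries. The ratio of remodeling to antral was 1.22, 0.962, 1.04, 1.0 and 1.2 at 2 to 6 wk, a median of 1.04 with an SD of 0.118 over the 5 libraries. The makeup of the remodeling group moved with age. A cluster led by Pamr1 and Rapgef5 gave 89 of its 104 cells at 2 wk and 145 of 883 at 6 wk. The part of this shift in the remodeling values by age was not tested. The name of the largest antral cluster, led by Pid1 and Vpreb3 (1649 cells), is uncertain. Its marker score was 0.592 for antral and 0.58 for remodeling. With the listed genes kept among the variable genes, the cluster led by these genes scored highest for remodeling and stayed unnamed. Its summed level was 357.6 CPM, against 458.2 and 417.8 CPM in the other antral clusters. The part of this cluster in the ratio was not tested separately. B2m was slightly higher in remodeling cells in all 5 libraries (median 1.15-fold, 1.02 to 1.37) and Tapbp more so (1.6-fold, 1.47 to 2.63). Psmb9 was lower in all 5, at a median of 0.343 (0 to 0.464), with 2, 0, 25, 31 and 46 UMIs in remodeling cells at 2 to 6 wk, and was the only member 2-fold lower in every library (1.03% of all genes were). With each cell thinned to 2000 UMIs the median was 0.556, and without the 2 wk library 2 members passed. In S-phase and mitotic cells, Psmb9 was at 7.12 and 7.24 CPM, against 5.53 CPM in antral and 2.36 CPM in remodeling cells.

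The summed level was higher at 6 wk than at 2 wk in each of the 7 classes with at least 50 cells in every library. It was lower at 3 wk than at 2 wk in all 7, higher at 4 than at 3 wk and at 5 than at 4 wk in all 7, and higher at 6 than at 5 wk in 2 of 7. In granulosa-like cells the level at 6 wk was 1.51 times that at 2 wk (1.48 to 1.54), and in stromal-like cells 2.2 times (2.15 to 2.25). It was 1.87 times (1.77 to 1.98) in smooth muscle-like, 2.78 times (2.51 to 3.09) in pericyte-like, 3.03 times (2.85 to 3.22) in blood endothelial-like, 1.6 times (1.53 to 1.67) in hematopoietic-like and 1.46 times (1.28 to 1.67) in theca-like cells. The step from 3 to 4 wk was 1.57-fold (1.53 to 1.6) in granulosa-like cells, 1.66-fold (1.61 to 1.72) in stromal-like cells and 2.05-fold (1.81 to 2.33) in blood endothelial-like cells. It starts from the 3 wk library, which lay below 2 wk in all 7 classes and had the lowest median depth, 9056 UMIs per cell. Age, library and depth cannot be told apart in this step. The intervals leave out the spread between animals, which 1 library per age cannot give.

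**Figure D4:**
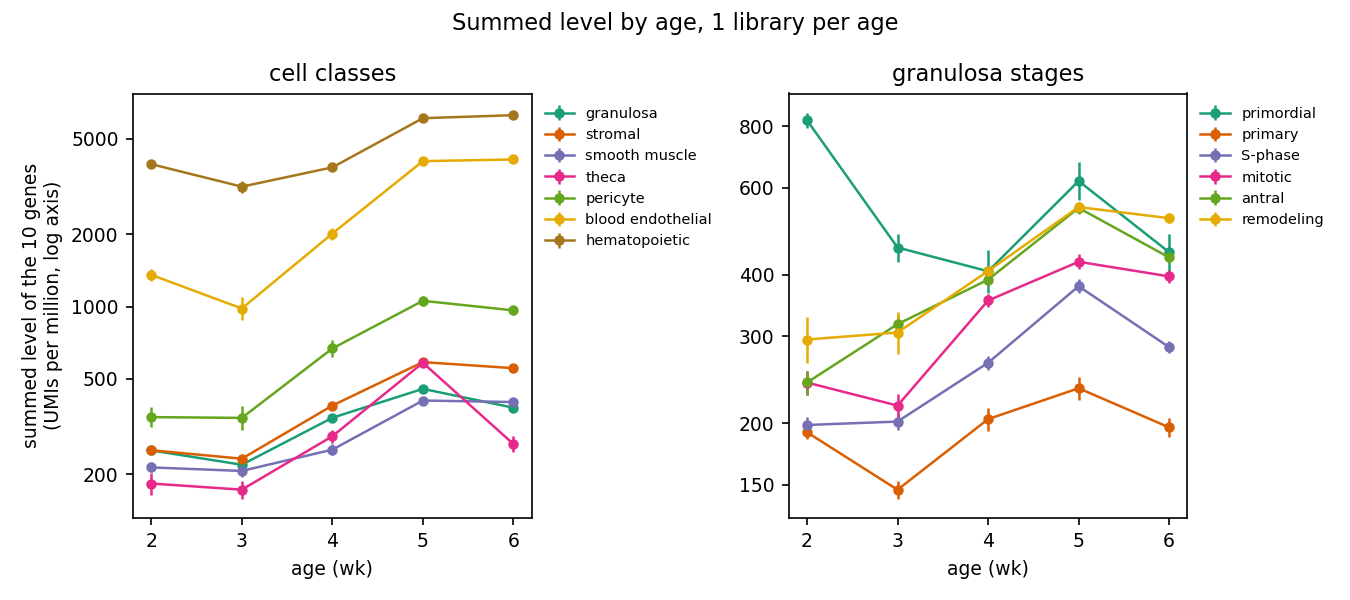
Summed level of the 10 genes (y axis, CPM, log axis) by age (x axis) in 7 cell classes (left) and 6 granulosa groups (right). Each point is 1 library with its 95% counting interval. All 7 classes are higher at 5 wk than at 3 wk, and the primordial group is alone in standing highest at 2 wk, at 822 CPM.

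The members differed in the size of this step. In stromal-like cells Psmb8 went from 5.42 CPM at 2 wk through 9.13, 27.0 and 37.7 to 38.1 CPM at 6 wk, a ratio of 7.02 (6.14 to 8.05). From 2 to 6 wk Psmb9 was 5.8-fold higher (4.57 to 7.42), H2-K1 3.51-fold (3.26 to 3.77), H2-D1 3.0-fold (2.8 to 3.21) and Psmb10 2.48-fold (2.3 to 2.67), while B2m was 1.64-fold higher (1.59 to 1.7). By the 2-fold rule these 5, of 9 members tested, were higher at 6 wk, where 3.67% of all genes were. The Psmb8 to Psmb5 ratio of stromal-like cells went from 0.0288 at 2 wk to 0.174 at 6 wk. Of the interferon signalling genes 3 of 13 were higher too, among them Stat2 (2.66-fold), as were 3 of 9 class I relatives, led by H2-M3 (3.91-fold) and H2-T23 (3.31-fold).

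The 6 wk level was also higher inside each of the 7 stromal clusters that make up the class. The ratio was 3.17-fold (2.88 to 3.49) in the cluster led by Clec3b and Dlk1, 2.92-fold (2.76 to 3.1) in the cluster led by Lrat and Tmeff2, which also had Ifit3 among its leading genes, and smallest, at 1.59-fold (1.51 to 1.68), in the cluster led by Dleu7 and Hhip. At 6 wk these clusters spanned 358 to 1295 CPM, a wider range than the 212 to 408 CPM at 2 wk. The highest value at 6 wk rests on 51 cells.

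In granulosa-like cells 1 member passed the 2-fold rule at 6 wk, Nlrc5 (5.73% of all genes), which went from 0.531 to 1.91 CPM, on 29 and 143 UMIs. Psmb8 was 1.78-fold higher (1.57 to 2.02), B2m 1.74-fold (1.68 to 1.81), H2-D1 1.65-fold (1.58 to 1.73) and H2-K1 1.55-fold (1.49 to 1.62), whereas Psmb10 (1.08, 0.999 to 1.16) and Tap2 (1.16, 0.996 to 1.36) had intervals that reached 1 and Tapbp was lower at 0.848 (0.79 to 0.91). The mix of stages shifted over the same ages, with 1381 primary and 331 antral cells at 2 wk and 648 and 863 at 6 wk. Within antral cells the sum was still higher at 6 wk, 1.79-fold (1.69 to 1.91), and B2m, H2-D1 and Psmb8 passed, 3 of 9 members tested (4.62% of all genes). Within primary cells the sum differed little, at 1.02 (0.971 to 1.08). The antral name rests on markers, and the follicle counts of the study list no antral follicles around 2 wk. Its authors nonetheless scored granulosa clusters as antral at 2 wk and assigned them to wave 1. They assigned nearly all antral clusters of 5 wk to boundary follicles. The part of the follicle wave in the antral ratio by age was not tested. Whether the antral cells of 2 wk come from antral follicles was not tested.

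Primordial granulosa cells went the other way. Their summed level was 822, 454, 406, 619 and 444 CPM at 2 to 6 wk, so the 6 wk level was 0.54 of the 2 wk level (0.491 to 0.593). H2-K1 (0.349, 0.285 to 0.423) and H2-D1 (0.405, 0.335 to 0.487) were 2-fold lower, 2 of 5 members tested, where 5.29% of all genes were. B2m was at 0.715 (0.584 to 0.87), and Psmb10, at 1.68 (1.14 to 2.46), was higher. The group shrank from 311 to 83 cells, and the summed level at 5 wk stood between the others.

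By the 2-fold rule, 6 of 9 members tested were higher at 6 than at 2 wk in blood endothelial-like cells (2.68% of all genes were), 6 of 7 in pericyte-like cells (3.28%) and 3 of 8 in smooth muscle-like cells (2.04%), against 0 of 8 in hematopoietic-like cells (7.58%). In blood endothelial-like cells H2-K1 was at 277.5, 229, 640.5, 1192 and 1170.0 CPM, and the 6 to 2 wk ratio of 4.22 (3.7 to 4.82) exceeded those of B2m, 2.97-fold (2.63 to 3.35), and H2-D1, 2.84-fold (2.54 to 3.17). Their median depth was 4560, 2217, 3619, 15266 and 9698 UMIs per cell at 2 to 6 wk, so depth moved with age in this class and its part in the result was not tested. In pericyte-like cells Psmb8 was at 10.5 CPM at 2 wk and 81.1 CPM at 6 wk, 7.71-fold (4.41 to 14.7). H2-K1 and H2-D1 of smooth muscle-like cells were 4.71-fold (3.81 to 5.87) and 2.97-fold (2.52 to 3.52) higher. In hematopoietic-like cells B2m was 1.58-fold (1.45 to 1.73) and H2-K1 1.59-fold (1.46 to 1.73) higher at 6 wk, whereas 7 of 7 class II genes passed the 2-fold rule, Cd74 at 5.23-fold (4.88 to 5.62). The makeup of the class moved too. At 2 wk it held 6 macrophage-like, 6 dendritic-like, 7 neutrophil-like and 18 unnamed of 53 cells. At 6 wk these were 39, 15, 4 and 38 of 130. The unnamed cells held 404061 of the 648642 UMIs of the class at 2 wk and 357000 of 1153245 at 6 wk. The part of this makeup in these results was not tested.

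The sum rose from 5 to 6 wk in only 2 of 7 classes. Theca-like cells were among those with a peak at 5 wk. H2-K1, at 17.0, 39.4, 71.3, 187 and 32.3 CPM from 2 to 6 wk, was 11-fold higher at 5 wk than at 2 wk (7.76 to 16.1), and 7 of 8 members tested passed (8.53% of all genes). From 5 to 6 wk, 5 of 9 members tested were 2-fold lower (8.98% of all genes) and the sum was at 0.459 of its 5 wk level (0.422 to 0.497). In the interferon list 6 of 12 genes were higher at 5 than at 2 wk, among them Irf1 (7.03-fold, 5.89 to 8.47), and 5 of 12 were lower at 6 than at 5 wk. Theca-like cells numbered 593 at 5 wk and 105 to 258 at the other ages.

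The ratio of the 2 heavy chains moved with the library across classes. H2-K1 UMIs per H2-D1 UMI had a median over the 7 classes of 1.0 at 2 wk, 1.44 at 3 wk, 1.61 at 4 wk, 0.995 at 5 wk and 0.987 at 6 wk. Tap1 to Tap2 was also highest at 4 wk, with medians of 0.882, 2.81, 4.7, 1.42 and 1.24. Tap2 was lower at both 3 and 4 wk than at 2, 5 and 6 wk in all 7 classes, in granulosa-like cells at 5.02, 1.75, 1.36, 4.47 and 5.82 CPM. B2m and Psmb9 showed that dip in 3 of 7 classes and H2-D1 in 1, while H2-K1, Psmb8, Psmb10, Tap1, Tapbp and Nlrc5 showed it in none. The 3 and 4 wk libraries also had the lowest median UMI counts per cell, 9056 and 9581, and their part in the dip was not tested. Theca-like cells had the highest H2-K1 to H2-D1 ratio from 3 to 6 wk, at 3.12, 3.55, 3.52 and 2.0.

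**Figure D5:**
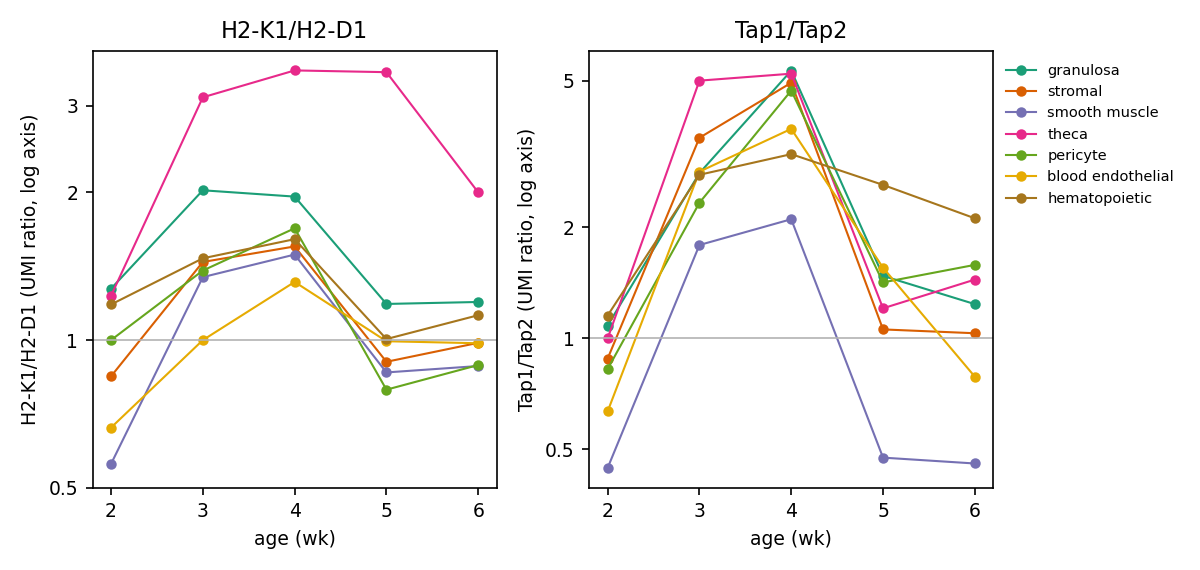
UMI ratio of H2-K1 to H2-D1 (left) and of Tap1 to Tap2 (right), on log axes, by age in 7 cell classes, 1 point per class and library. The grey line marks a ratio of 1. Tap1 to Tap2 is higher at 3 and 4 wk than at the other ages in each class, and so is H2-K1 to H2-D1 in every class but theca-like cells, where 5 wk (3.52) exceeds 3 wk (3.12); the ratios reach 3.55 for H2-K1 to H2-D1 in theca-like cells and 5.32 for Tap1 to Tap2 in granulosa-like cells.

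The members varied together across cell classes but less so within the granulosa groups. Over 41 groups of class and library, the correlation (Pearson's r of log2(CPM + 1)) of each member with the mean of the other 9 ran from 0.711 for Tapbp to 0.97 for Psmb8. Over 30 groups of granulosa stage and library it ran from -0.018 for Tapbp to 0.847 for H2-D1. Groups of 1 library share its depth and preparation, so these are descriptions. Of 9164 other genes, those most like the members' mean over the classes were Trim30a (0.921), Sp140 (0.919), Parp14 (0.913), Srgn (0.906), H2-Q7 (0.895), Clic1 (0.892), Tnfaip3 (0.888), Il2rg (0.885), Shisa5 (0.884) and Trim12a (0.883). Over the granulosa groups the closest of 8320 genes included Ostf1 (0.898), Smim14 (0.827), 2810402E24Rik (0.814), Ccdc115 (0.813), 1810030O07Rik (0.807), Scoc (0.791), Rnf113a2 (0.784), Txnip (0.778) and Selenom (0.778). The 2 lists share no gene.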

How the data were processed

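Whole-ovary single-cell libraries of 5 ages were analysed, 1 per age. The authors aligned and counted reads with Cell Ranger, and deposited filtered matrices of UMI counts per gene and cell, not normalized. The labels name version 3.1.0 and the matrix headers name 3.1.0 for 2 to 4 wk and 6.0.1 for 5 and 6 wk. The count matrices were used as deposited, with no further filter on cells, and doublets were called with Scrublet (scanpy 1.11.5) and used only to leave clusters unnamed. Libraries were integrated and clustered with Seurat 5.3.0 in R 4.3.3 (2000 variable genes, less the 14 listed here among them, 50 principal components of which 30 were used, 20 neighbours, resolution 1). Clusters were named from marker lists, and the limits on naming were chosen with the clusters in view. UMIs were summed per library and group, and levels, ratios and exact 95% Poisson, binomial and conditional intervals were computed in Python 3.11.15 with scipy 1.17.1. With 1 library per age no test was run, and the code was tested on simulated data. A gene counted as apart with at least 100 UMIs over both groups and a difference of at least 2-fold in every library compared. The members and gene lists were chosen with earlier results of these data known. The text names all 10 members, at most 4 genes of the other lists per comparison by size of fold among those apart (Tapbpl was named after its value was seen), and the 10 genes most like the members over groups with at least 50 cells, among genes of at least 10 CPM on average. Some genes that this rule names are not reported here. Alternatives changed the clustering, scaling, cell filter, thresholds and libraries, the last chosen after seeing the data.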

Additional observations from a re-analysis of the deposited data

Results flagged for a closer look

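Between 2 and 6 wk the primordial granulosa group went against 4 of the 5 other groups of granulosa-like cells. Its summed level at 6 wk was 0.54 of that at 2 wk, with B2m at 0.715, H2-K1 at 0.349 and H2-D1 at 0.405, while those 4 had a ratio whose counting interval lay above 1, by 1.44-fold to 1.79-fold in the sum. The remaining group, primary cells, was at 1.02 (0.971 to 1.08). The makeup of the S-phase group, which is among those 4, moved with age. An S-phase cluster led by Calb1 and Mapk13, with a primary score of 0.82, gave 276 of 578 cells at 2 wk and 128 of 625 at 6 wk. Its summed level was 183 CPM, against 283 and 285 CPM in the other S-phase clusters. The part of this shift in the S-phase ratio was not tested. Tapbp in granulosa-like cells was at 0.848 of its 2 wk level, while 4 of 7 cell classes had a Tapbp ratio with an interval above 1, by 1.25-fold to 1.91-fold. With 1 library per age these differences were not tested. Cells of clusters that stayed unnamed, which enter no comparison, held the 10 genes at 364.9 CPM (359 to 371) over 8253 cells.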

How the results depend on the processing

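No value with a direction reversed under the alternatives run, though remodeling over antral cells (1.04) was 0.949 with the listed genes kept among the variable genes and 1.0 without mitochondrial and ribosomal protein genes. The summed level in hematopoietic-like over granulosa-like cells (14.4-fold) was 18.42 with median-of-ratios scaling and 16.75 as a mean of the CPM of each cell. The 6 to 2 wk ratio in granulosa-like cells (1.51) was 1.538 with libraries merged without integration, 1.546 after a cell filter (1000 genes or more, mitochondrial UMIs below 10%), 1.447 as a mean over cells and 1.46 with cells thinned to 2000 UMIs. In stromal-like cells (2.2) it was 2.518 as a mean over cells and 2.447 thinned. For sums 51 other values, and for single genes 537 values, moved by less than their spread, and 51 for single genes moved by more. Thinned to 2000 UMIs, the 6 to 2 wk ratio of Psmb9 in granulosa-like cells went from 1.584 to 1.003. That of Nlrc5 in stromal-like cells went from 8.395 to 3.347. It rests on at most 31 UMIs, the count over all libraries, below the 100 asked of a gene counted as apart. In blood endothelial-like over granulosa-like cells, H2-K1 went from 5.133 to 8.066 when thinned, and Tap1 from 8.57 to 12.91 as a mean over cells. Leaving out each library in turn, chosen after seeing the data, gave 13.9 to 15.0 for hematopoietic-like cells, 5.62 to 7.37 for blood endothelial-like cells and 1.02 to 1.12 for remodeling over antral cells. Counts of members depended more on the fold that counts as apart. At 1.5-fold in place of 2-fold they went from 5 to 9 in lymphatic endothelial-like, 1 to 5 in pericyte-like and 0 to 3 in stromal-like over granulosa-like cells, and from 0 to 4 lower in primary than in antral cells. For 6 over 2 wk, granulosa-like cells had 6 in place of 1, the stromal-like class 9 in place of 5, the smooth muscle-like class 5 in place of 3, hematopoietic-like cells 6 in place of 0 and antral cells 5 in place of 3, while the share of all genes called reached 2.29% to 17.8% over the 20 comparisons. With at least 20 UMIs in place of 100, 1 member in place of 0 was called in hematopoietic-like cells for 6 over 2 wk. The counts at 1.5-fold and at 20 UMIs are given without the share of all genes in the same comparison. They are therefore not set against a background. No paired analysis of ages was possible because each age has 1 library. Ratios between classes and between granulosa groups were each taken inside a library. Depth limits Nlrc5, Psmb9 and the smaller groups, where a few UMIs set a ratio.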

Other observations

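Groups outside the comparisons also held these genes. The 90 rete ovarii-like cells, which belong to the tubules at the ovarian hilum, were at 387.7 CPM of the 10 genes (352 to 426), with 1 library of at least 50 cells. The 481 cells of an unnamed cluster led by globin genes such as Hbb-bt and Hba-a1 had 77.2 CPM (58.9 to 99.4), with B2m at 14.2 CPM, no UMI of Tap2, Psmb9 or Nlrc5, and a median of 1063 UMIs per cell. The 1151 cells of an unnamed cluster led by oocyte genes such as Zp3 and Ooep, of which 66.6% were called doublets, were at 386.6 CPM (379 to 394). Among the blood subclusters the UMI ratio of Psmb8 to Psmb5 was 4.49 (3.5 to 5.81) in dendritic-like and 3.08 (2.4 to 3.99) in T-like cells, against 1.49 (0.95 to 2.35) in neutrophil-like cells. Lymphatic endothelial-like cells, which reached 50 cells at 4 and 5 wk alone, were at 904 CPM of the 10 genes at 4 wk and 2646 CPM at 5 wk, a ratio of 2.93 (2.61 to 3.3).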
